A study of Mus musculus with 27 samples.

Results

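The genes described here encode Polycomb repressive complex 2 (PRC2) and the enzyme that removes its mark, chosen by symbol and not by any measured value. They are Ezh2, Ezh1, Suz12, Eed, Jarid2, Rbbp4, Rbbp7, Mtf2, Phf19 and Kdm6b, 10 genes of the 27316 in the mouse table, the 23597 in the organoid table and the 27179 in the tumour table. RNA-seq was made from 27 mouse libraries in 9 groups of 3, in a study of Taf4, which belongs to TFIID, the factor that starts transcription at core promoters. Every library came from intestine or from cells grown out of it, in mice of mixed C57Bl6 and 129 background. Embryonic intestine was taken at E17.5, in a KO group (Taf4 lox/lox with VilCre, a recombinase driven by the Villin promoter of gut epithelium) and a WT group (lox/lox littermates without Cre). Adult ileum came from 8-week-old mice, in a KO group (Taf4 lox/lox with VilCreERT2, the tamoxifen-inducible form of that recombinase) and a WT group (lox/lox). The labels give tamoxifen for KO and sunflower oil for WT, embryos included, whereas the study's methods give tamoxifen to adult controls too. Organoids were cultures of ileal crypt cells, taken from mice aged 4 months. The 4-OHT group was Taf4 lox/lox with VilCreERT2 by the methods and received 1 µM 4-hydroxytamoxifen for 3 days, a treatment that the labels state for replicates 2 and 3 alone. The control organoids are labelled as ethanol-treated, but the methods describe them as lox/lox cultures without Cre that received 4-OHT. The EPZ group had the same genotype as the 4-OHT group by the methods, so that both were treated to inactivate Taf4. It received 1 µM 4-OHT and 1 µM EPZ-6438, an inhibitor of the catalytic site of Ezh2. Its labels give 11 days of growth. The methods give a later day for the EPZ group and day 3 for control and 4-OHT organoids. EPZ therefore cannot be told apart from time in culture. Organoid replicates were wells. Ileal tumours all carried the Apc Δ14 allele and came from mice given tamoxifen at 6 to 8 weeks, with Taf4 either +/+ (Apc tumours) or KO (Apc Taf4KO tumours).

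PRC2 adds methyl groups to lysine 27 of histone H3 (H3K27), a mark of silenced genes. Ezh2 is the catalytic subunit that dividing cells use most and Ezh1 is its paralog, which is prominent in resting and differentiated tissue. Suz12 and Eed are required for activity, Eed by binding the methylated tail, and the WD40 proteins Rbbp4 and Rbbp7 bind histones and are shared with other chromatin complexes. Mtf2 and Phf19, homologs of Drosophila Polycomb-like, and Jarid2 guide the complex to its sites in 2 alternative assemblies. Kdm6b is a demethylase that takes the methyl groups off H3K27. In the intestine PRC2 is known for keeping crypt cells proliferating and for restraining differentiation genes.

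On mouse build mm9 Ezh2 lies at chr6:47480273-47545340 and Ezh1 at chr11:101052429-101087777, both on the minus strand. Suz12 lies at chr11:79806608-79847625 on the plus strand and Eed at chr7:97103166-97129493 on the minus strand. Rbbp4 lies at chr4:128984344-129012614 (minus) and Rbbp7 at chrX:159198334-159217024 (plus). Jarid2 is at chr13:44824843-45017012 (plus), Mtf2 at chr5:108494693-108538023 (plus), Phf19 at chr2:34749277-34769546 (minus) and Kdm6b at chr11:69212010-69227177 (minus). In that annotation 8 of the 10 overlap a gene on the opposite strand (Ezh1 and Eed do not), and the strand setting of the authors' counting is not given in the sources used here. Rbbp4 and Rbbp7 are close paralogs, so that reads common to both or to processed copies could be split or lost.

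RefSeq promoters (build GRCm38.p6, 250 bases before to 50 after the start) were found for 9 of the 10 members, 11 promoters in all. E2F factors drive genes of DNA replication, and their motif TTTNNCGC was searched on both strands. It was found in Ezh2, Suz12 and Phf19, and in 5.17% of all 32851 promoters of the table. The CHR element of cell cycle genes (TTTGAA or TTCGAA, both strands) was found in Suz12, Eed and the second promoter of Mtf2, and in 19.2% of all promoters. The promoters below belong to the 3 members with an E2F match, to Rbbp7, the member with the largest 4-OHT difference, and to Ezh1, the member with the opposite difference. Capitals mark the E2F matches, which begin 4 bases into the Ezh2 transcript, 219 bases before the Suz12 start, and 208 and 198 bases before the Phf19 start, the last pair on the reverse strand. They lie at chr6:47594981-47595280 (Ezh2, minus), chr11:79992856-79993155 (Suz12, plus), chr2:34913927-34914226 (Phf19, minus), chrX:162760122-162760421 (Rbbp7, plus) and chr11:101226414-101226713 (Ezh1, minus).
Ezh2: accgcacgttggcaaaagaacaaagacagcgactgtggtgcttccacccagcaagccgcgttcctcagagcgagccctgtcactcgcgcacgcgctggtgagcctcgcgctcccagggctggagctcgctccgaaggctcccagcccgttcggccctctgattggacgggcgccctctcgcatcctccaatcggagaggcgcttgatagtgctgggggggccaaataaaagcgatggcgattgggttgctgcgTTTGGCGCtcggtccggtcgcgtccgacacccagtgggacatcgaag
Suz12: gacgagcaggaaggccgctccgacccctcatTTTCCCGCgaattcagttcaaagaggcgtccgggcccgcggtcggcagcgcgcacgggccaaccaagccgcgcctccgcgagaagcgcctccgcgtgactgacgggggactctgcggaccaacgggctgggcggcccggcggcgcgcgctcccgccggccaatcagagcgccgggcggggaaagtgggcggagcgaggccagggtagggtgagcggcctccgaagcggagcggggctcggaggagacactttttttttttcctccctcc
Phf19: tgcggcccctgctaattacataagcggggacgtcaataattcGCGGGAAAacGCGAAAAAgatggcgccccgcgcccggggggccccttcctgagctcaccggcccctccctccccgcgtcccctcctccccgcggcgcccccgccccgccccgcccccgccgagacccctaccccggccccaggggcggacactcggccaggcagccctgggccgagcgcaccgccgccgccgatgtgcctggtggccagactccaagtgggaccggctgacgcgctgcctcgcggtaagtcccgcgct
Rbbp7: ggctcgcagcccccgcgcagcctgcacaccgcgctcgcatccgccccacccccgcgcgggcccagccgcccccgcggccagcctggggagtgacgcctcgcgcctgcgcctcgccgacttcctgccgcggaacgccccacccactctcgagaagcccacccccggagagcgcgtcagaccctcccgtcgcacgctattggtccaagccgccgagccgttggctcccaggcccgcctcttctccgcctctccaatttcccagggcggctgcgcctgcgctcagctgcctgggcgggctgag
Ezh1: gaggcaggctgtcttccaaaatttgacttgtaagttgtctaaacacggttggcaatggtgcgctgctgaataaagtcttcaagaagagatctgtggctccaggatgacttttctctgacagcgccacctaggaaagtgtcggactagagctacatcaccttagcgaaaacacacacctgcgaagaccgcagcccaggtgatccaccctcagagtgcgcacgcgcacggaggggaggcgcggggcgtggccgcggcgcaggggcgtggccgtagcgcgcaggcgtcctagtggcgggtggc
The GC content of these 11 promoters ran from 45.7% to 75.7%, against a median of 52.7% over the whole table, and their CpG number from 2 to 41, against a median of 7. A match is a description of letters and not a site of binding.

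For embryos, adults and organoids the files give 1 authors' mean of normalized counts per gene and group, so that these values have no SD here and were not tested. The files also hold the authors' own test columns for some of these comparisons, which were not used. Means were compared within a table alone, as log2 of the mean plus 1, and a gene was called past a fold when the higher mean was at least 10. Group means summed to 13995108 to 16193267 normalized counts in organoids and 11937454 to 16583166 in mice, and tumour libraries held 23017312 to 39237670 reads. The gene-level mean of Taf4a was not lower with 4-OHT (286 against 264) or in either labelled KO group (300 against 226 at E17.5, 494 against 373 in adults). In tumours, Taf4 stood at 10.5 to 11.4 FPKM in Apc and 13.0 to 13.9 FPKM in Apc Taf4KO libraries. Which exons the deletion removes is not given in the sources used here, so this level checks no label, and groups are called by their labels. All 8 epithelial markers were present in every group. In organoids the 7 fibroblast markers summed to 5.80 to 36.3 normalized counts, against 80217 to 144529 for the epithelial markers. The third Apc Taf4KO tumour library has a column header that joins the animal names of the other 2 in its group, and 63.4% of 13794 genes lay between those libraries in it, against 16.5% to 40.2% for each of the other 5. It may be a pool, which would leave 2 animals in that group. The first Apc tumour library stood apart by lymphocyte markers (T and NK cell markers summed to 169.5 FPKM, at most 52.1 FPKM in the others).

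**Figure D1:**
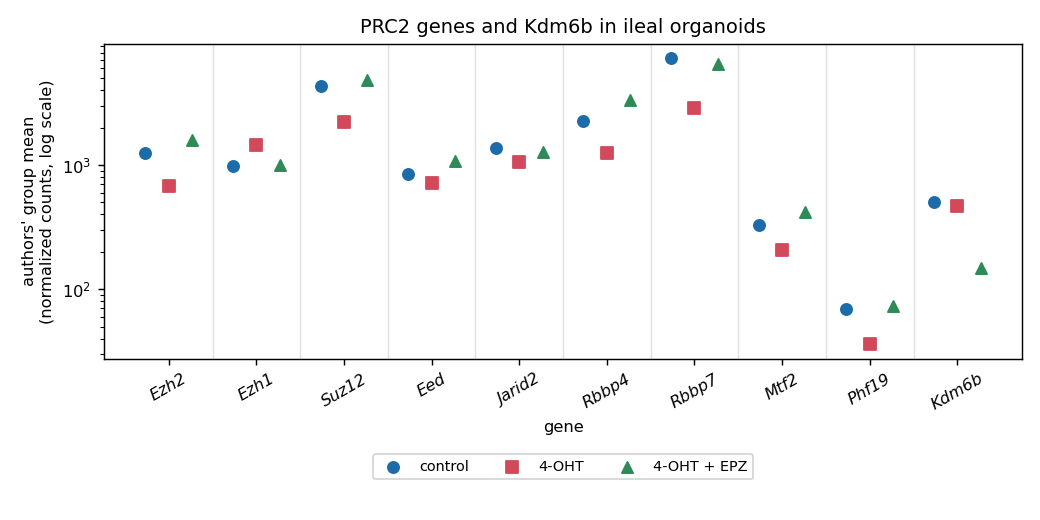
Authors' group means of normalized counts (log scale) for the 10 genes in control, 4-OHT and 4-OHT with EPZ organoids, 1 point per gene and group. The 4-OHT point is the lowest of its gene for 8 of the 10 genes, the exceptions being Ezh1, where it is the highest, and Kdm6b.

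In organoids, Ezh2 and most of the core subunits had lower means with 4-OHT than in control. Ezh2 had a mean of 1249 normalized counts in control and 671 in 4-OHT organoids, 1.86-fold lower (log2 difference -0.89). Its paralog Ezh1 went the other way, from 988 to 1461, 1.48-fold higher (log2 0.56). Ezh2 was the more abundant of the pair per kilobase of exon in control organoids (202 against 133 normalized counts per kb) and Ezh1 in 4-OHT organoids (196 against 108). Suz12, without which the complex is unstable, had 4287 and 2202 normalized counts (log2 -0.96). Eed, the reader of the mark, had 845 and 713 (log2 -0.24). Both Rbbp genes had lower means, Rbbp7 from 7223 to 2895 (log2 -1.32) and Rbbp4 from 2264 to 1253 (log2 -0.85). Of all genes compared, 7.67% had a lower log2 difference than Rbbp7, and 13.1% had a lower one than Ezh2. Among the accessory subunits, Phf19 had 69.7 and 36.1 normalized counts (log2 -0.93), Mtf2 331 and 205 (log2 -0.68) and Jarid2 1358 and 1051 (log2 -0.37). The Polycomb-like pair was lower by more than Jarid2. Kdm6b, the demethylase, was nearly level at 505 and 467 (log2 -0.11).

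Of the 10 genes, 1 (Rbbp7) was lower past 2-fold, where 11.3% of 13929 genes were, and none was higher, where 11.9% were. At 1.5-fold, 6 of the 10 were lower (Ezh2, Suz12, Rbbp4, Rbbp7, Mtf2 and Phf19) beside 21% of all genes, and none was higher beside 21.1%. Their median log2 difference was -0.77, against 0.0032 over all genes. Scaling the means to equal totals moved the median of all genes by -0.13 and put Ezh2 (-1.02), Suz12 (-1.08) and Phf19 (-1.05) past 2-fold as well, 4 of the 10 in all. No sign of a member turned at equal totals or at a median log ratio of 0.

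With EPZ, 8 of the 10 genes had a higher mean than with 4-OHT alone. The mean of Ezh2, the target of the drug, was 1594 normalized counts, 2.37-fold that of 4-OHT organoids (log2 1.25). Ezh1 was lower at 1008, near its control level (log2 -0.53). Suz12 stood at 4839 (log2 1.14) and Eed at 1084 (log2 0.60). Rbbp4 had the largest difference upward of the set, at 3314 normalized counts, 2.64-fold, and Rbbp7 reached 6462 (log2 1.16). The Polycomb-like subunits were again alike, with Mtf2 at 422 (log2 1.04) and Phf19 at 72.7 (log2 0.99), and Jarid2 differed least at 1270 (log2 0.27). Kdm6b went the other way, to 147 normalized counts, 3.18-fold lower than with 4-OHT alone (log2 -1.66), and 8.94% of genes had a lower value. Past 2-fold, 5 of the 10 were higher (Ezh2, Suz12, Rbbp4, Rbbp7 and Mtf2) beside 17.2% of 14109 genes, and 1 was lower (Kdm6b) beside 18%. At 1.5-fold these were 7 higher beside 28% and 1 lower beside 28.6%. At equal totals Mtf2 stood at 0.95 and 4 of the 10 were higher past 2-fold. The median of the 10 was 1.01, against 0.012 over all genes. This comparison shares the 4-OHT group with the previous one, so the values of both are given side by side and not as independent results.

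**Figure D2:**
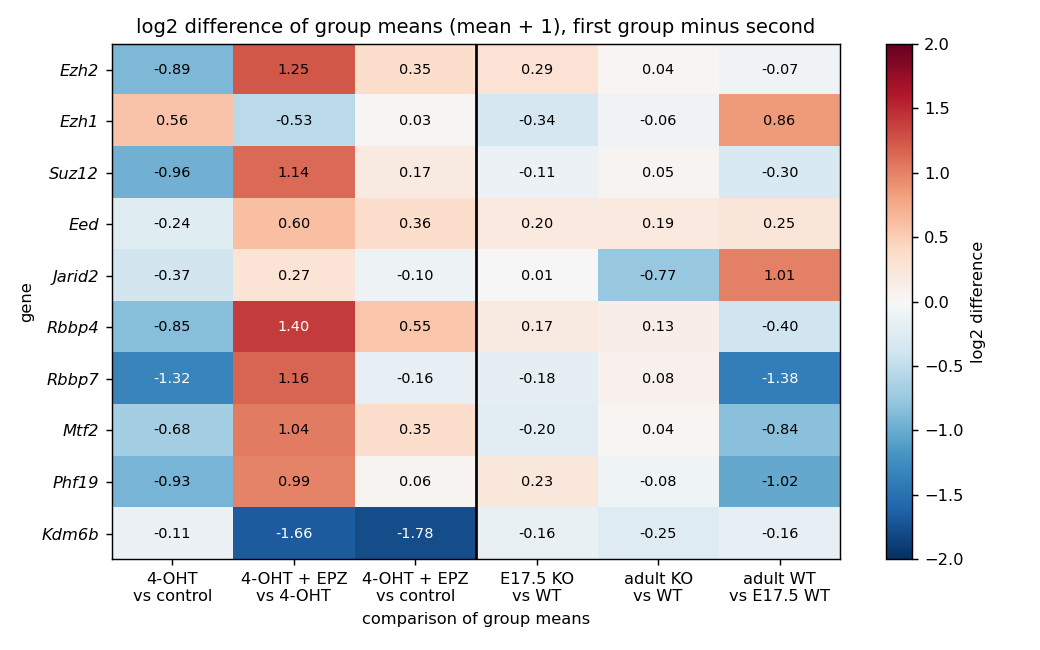
Log2 difference of authors' group means (mean + 1, first group minus second) for the 10 genes in 6 comparisons, organoids left of the line and mice right of it, with colour from blue (lower) to red (higher). The first 2 columns are mostly of opposite colour and share the 4-OHT group, Kdm6b is the darkest cell of the third column at -1.78, and the E17.5 KO column holds no value beyond 0.34 in size.

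Set directly against control, EPZ organoids had higher means for some members and lower means for others, and Kdm6b differed most. Ezh2 was 1.28-fold higher (1594 against 1249, log2 0.35), Rbbp4 1.46-fold higher (log2 0.55), and Eed and Mtf2 both 1.28-fold higher (log2 0.36 and 0.35). Ezh1 (log2 0.03), Suz12 (0.17), Phf19 (0.06), Jarid2 (-0.10) and Rbbp7 (-0.16) lay within 0.20 of control, and Ezh1, Suz12 and Phf19 took the other sign at equal totals (-0.18, -0.04 and -0.15). Kdm6b was 3.44-fold lower than in control (147 against 505, log2 -1.78), and 5.61% of genes had a lower value. It was the 1 gene of the 10 past 2-fold, beside 13.3% lower and 12.4% higher of 14001 genes.

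Other Polycomb genes did not all follow the core in organoids. Of 6 further PRC2 accessory genes, 5 passed the level filter. Phf1, another Polycomb-like homolog, had 61.7 normalized counts in control, 166 with 4-OHT (log2 1.42) and 46.0 with EPZ (log2 -1.83 against 4-OHT), the reverse of Mtf2 and Phf19. Epop (log2 -0.97) and Lcor (-0.87), subunits of the Polycomb-like assembly, were lower with 4-OHT, and Aebp2 of the Jarid2 assembly was at -0.19. Polycomb repressive complex 1 (PRC1) puts ubiquitin on histone H2A and reads the PRC2 mark through its Cbx proteins. Of its 22 listed genes, 5 were lower past 2-fold with 4-OHT, beside 11.3% of all genes, and 1 was higher, beside 11.9%, with a median of -0.34. The mark reader Cbx6 had the largest difference, from 374 to 44.8 normalized counts (log2 -3.03), and stood at 1010 with EPZ (log2 4.46). Cbx7 (901 to 367, log2 -1.29), Cbx2 (log2 -1.29), Pcgf5 (log2 -1.06) and Kdm2b (log2 -1.05) were the others lower, and Phc3 was higher (log2 1.00). With EPZ against 4-OHT 3 PRC1 genes were higher past 2-fold (Cbx6, Pcgf5 at 1.47 and Pcgf6 at 1.07) and none lower, with a median of 0.26, beside 17.2% of all genes higher and 18% lower, so that the PRC1 count higher was not above the share of all genes. Bmi1 had 3396, 2884 and 5284 normalized counts in control, 4-OHT and EPZ organoids. Apart from Kdm6b, which is counted with the 10 genes, 4 of 5 listed H3K27 demethylase and PR-DUB genes, which oppose Polycomb marks, passed the filter and none was past 2-fold in either comparison. Kdm6a, the X-linked paralog of Kdm6b, had 279 normalized counts in control and 214 with EPZ, and its 4-OHT difference was -0.14 on the log2 scale.

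Cell cycle genes had differences of the same sign as Ezh2. Of 24 genes of the cell cycle and E2F list, 23 were lower past 2-fold with 4-OHT (median -1.70), beside 11.3% of all genes, and 20 were higher with EPZ against 4-OHT (median 1.55), beside 17.2%. Mki67, the proliferation marker, had 1667, 312 and 802 normalized counts in control, 4-OHT and EPZ organoids. With EPZ against control the whole list had a median of -0.03, with 12 genes above 0 and 12 below. Past 2-fold, 4 of the 24 were lower there, beside 13.3% of all genes, and none was higher, beside 12.4%. The Ezh2 differences of -0.89 and 1.25 were smaller in size than the list medians of -1.70 and 1.55. Fewer cells of a type and less RNA per cell cannot be told apart in bulk RNA, and the part of cell division in the PRC2 levels was not tested.

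**Figure D3:**
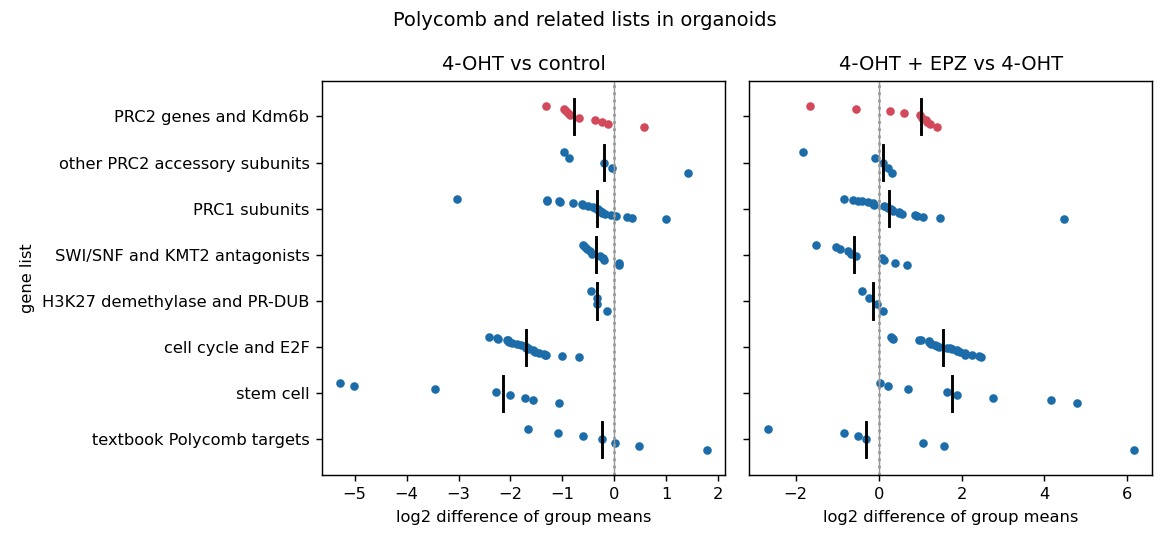
Log2 difference of authors' group means for each listed gene past the level filter (points), by list, with the list median (black bar), in 4-OHT against control (left) and 4-OHT with EPZ against 4-OHT (right). The dotted line is the median of all genes. The medians of the PRC2 genes with Kdm6b are -0.77 and 1.01, those of the cell cycle list -1.70 and 1.55 and those of PRC1 -0.34 and 0.26.

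In E17.5 intestine, the groups labelled WT and KO differed little in PRC2 genes. Ezh2 had 605 normalized counts in WT and 741 in KO, 1.22-fold higher (log2 0.29), and Ezh1 had 1158 and 915, 1.27-fold lower (log2 -0.34). These were the largest differences of the 10 genes in each direction, and both had the sign opposite to that of 4-OHT against control in organoids. Suz12 had 3278 and 3030 normalized counts (log2 -0.11), Eed 498 and 573 (log2 0.20), Rbbp4 1423 and 1606 (log2 0.17) and Rbbp7 4856 and 4277 (log2 -0.18). Jarid2 was level at 2161 and 2175, Mtf2 had 417 and 362 (log2 -0.20), Phf19 110 and 129 (log2 0.23) and Kdm6b 823 and 739 (log2 -0.16). None of the 10 was past 2-fold, beside 2.16% of 16484 genes higher and 8.32% lower. The median of the 10 was -0.05, against 0.04 over all genes. Suz12 turned to 0.02 at equal totals and Jarid2 to -0.03 at a median of 0. The makeup of these samples moved as well: the 7 fibroblast markers summed to 98382 in WT and 174020 in KO and the 8 epithelial markers to 50017 and 31454, and their part in the PRC2 levels was not tested. Of the cell cycle list 22 of 24 genes had a higher mean in KO, with a median of 0.33, close to the value of Ezh2. The 2 with a lower mean were E2f8 (log2 -1.05), the only gene of the list past 2-fold, and E2f2 (log2 -0.43).

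In adult ileum, 9 of the 10 genes differed by 1.19-fold or less between the groups labelled WT and KO. Ezh2 had 577 and 593 normalized counts (log2 0.04), Ezh1 2095 and 2005 (log2 -0.06) and Suz12 2666 and 2760 (log2 0.05). The exception was Jarid2, with 4351 in WT and 2559 in KO, 1.70-fold lower (log2 -0.77), and 9.38% of genes had a lower value. Eed (592 and 678, log2 0.19), Rbbp4 (log2 0.13), Rbbp7 (0.08) and Mtf2 (0.04) were at or above WT, and Phf19 (-0.08) and Kdm6b (737 and 619, log2 -0.25) below it. Ezh1 and Phf19 turned sign at equal totals (0.11 and 0.08), and Jarid2 stayed the lowest at -0.59. None was past 2-fold, beside 3.58% of 16748 genes higher and 6.58% lower, and 1 was lower past 1.5-fold (Jarid2), beside 13.3%. T and NK cell markers summed to 4369 in WT and 1393 in KO, and B and plasma cell markers to 26197 and 14345. Whether lymphocyte RNA has a part in the Jarid2 difference was not tested. The cell cycle list had a median of -0.0083 here.

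**Figure D4:**
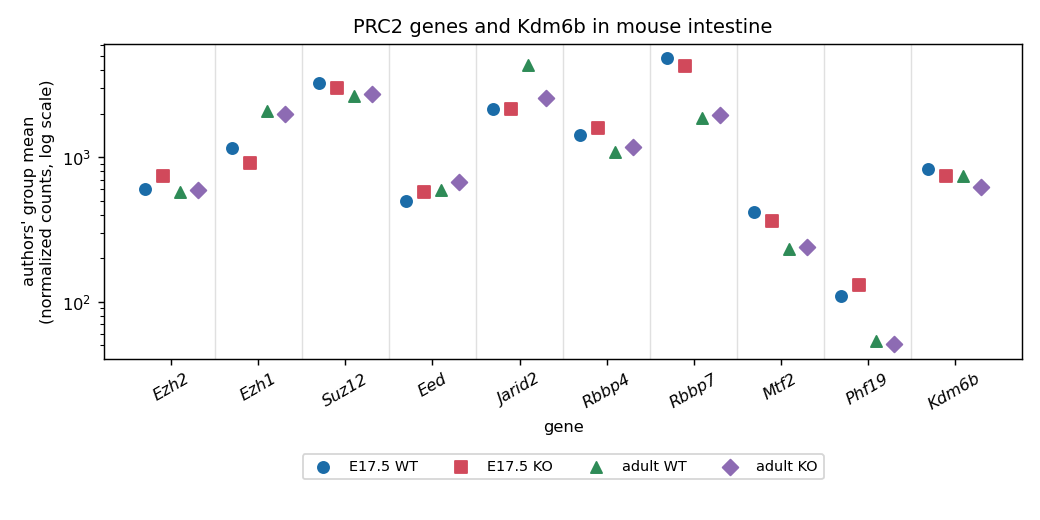
Authors' group means of normalized counts (log scale) for the 10 genes in intestine labelled WT and KO for Taf4 at E17.5 and in the adult, 1 point per gene and group. Points of the same age lie close together except for Jarid2 in adults (4351 and 2559), while Rbbp7, Phf19 and Mtf2 are lower and Ezh1 is higher at the adult age in both genotypes.

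Several PRC2 genes differed between the ages. Between WT embryos and WT adults, Ezh1 went from 1158 to 2095 normalized counts, 1.81-fold higher (log2 0.86), while Ezh2 was nearly level (605 and 577, log2 -0.07). Jarid2 was 2.01-fold higher in adults (2161 to 4351, log2 1.01). Rbbp7 was 2.61-fold lower (4856 to 1861, log2 -1.38), Phf19 2.05-fold lower (110 to 53.7, log2 -1.02) and Mtf2 1.79-fold lower (417 to 233, log2 -0.84). Rbbp4 (log2 -0.40), Suz12 (-0.30) and Kdm6b (-0.16) were lower by less, and Eed was at 0.25, or -0.09 at equal totals. The same order appeared among labelled KO groups for Ezh1 (915 to 2005, log2 1.13), Rbbp7 (4277 to 1966, log2 -1.12) and Phf19 (129 to 50.6, log2 -1.34), but Jarid2 differed by 0.23 there. Past 2-fold, 1 of the 10 was higher in WT adults (Jarid2) beside 18.3% of 17381 genes, and 2 were lower (Rbbp7 and Phf19) beside 15.2%, so the share of members past the fold was close to that of all genes. Equal totals moved the median of all genes by -0.35 and Jarid2 to 0.67, after which 3 were lower past 2-fold (Rbbp7, Phf19 and Mtf2) and none was higher. Adult samples were ileum by their labels and embryonic samples intestine, and fibroblast markers summed to 98382 and 27246, so that age cannot be told apart from tissue makeup.

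The tumours were the one setting with a value per library, in FPKM. Ezh2 stood at 26.3, 27.7 and 23.8 FPKM in the Apc libraries and at 36.3, 28.6 and 32.4 FPKM in the Apc Taf4KO libraries. All 3 Apc Taf4KO values lay above all 3 Apc values. The means were 25.9 ± 1.95 and 32.5 ± 3.85 FPKM (SD, n = 3 libraries each), a log2 change of 0.31 (SE 0.11), which did not pass limma's test over 13794 genes (Benjamini-Hochberg adjusted p = 0.153). The third Apc Taf4KO library, the possible pool, is counted as a library of its own in the SD, the n and each statement of overlap. Rbbp7 stood at 95.8, 104 and 105 FPKM in Apc libraries and 155, 122 and 142 FPKM in Apc Taf4KO libraries, again without overlap. Its log2 change of 0.45 (SE 0.11) was the largest of the set and missed the threshold at an adjusted p of 0.0823 (limma). Suz12 ran from 19.9 to 24.7 FPKM in Apc and from 23.1 to 26.99 FPKM in Apc Taf4KO libraries, and Mtf2 from 6.41 to 8.30 and from 7.99 to 10.5 FPKM. Ezh1 ran from 12.1 to 16.1 and from 14.97 to 18.05 FPKM, and Kdm6b from 18.0 to 24.6 and from 22.7 to 27.7 FPKM. In these and in Rbbp4, Eed, Jarid2 and Phf19 the groups overlapped. Phf19 was the least abundant member at 0.902 to 2.02 FPKM, from 93 to 297 reads.

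**Figure D5:**
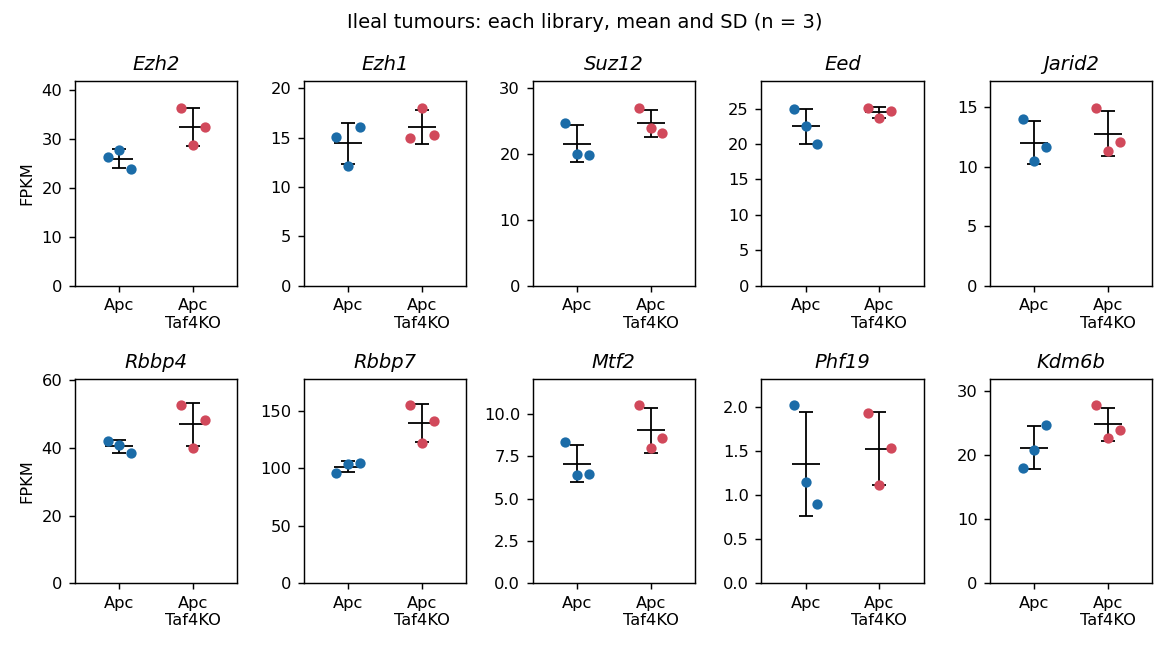
FPKM of the 10 genes in each Apc and Apc Taf4KO tumour library (points), with the group mean and SD (bars, n = 3), each panel starting at 0. The groups do not overlap for Ezh2 and Rbbp7 and overlap for the other 8 genes. The third Apc Taf4KO library may be a pool.

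None of the 10 genes was called at an adjusted p under 0.05 in limma, beside 1.23% of 13794 genes called higher and 0.993% called lower. An exact permutation test of 3 against 3 libraries cannot go below 0.10. Libraries did not overlap for 2 of the 10, both higher, beside 26.9% of genes higher and 8.5% lower. All 10 had a log2 change above 0, from 0.08 for Jarid2 to 0.45 for Rbbp7, with a median of 0.20. The median of all genes was itself 0.14, and about 67% of all genes had a log2 change above 0. After scaling to a median log ratio of 0 Eed (-0.02), Jarid2 (-0.06) and Phf19 (-0.02) lay below 0. That scaling also moved the genes called higher from 55.4% to 28% of calls. Without the third Apc Taf4KO library, the possible pool, Ezh2 was at 0.31 (adjusted p = 0.382) and Rbbp7 at 0.43 (adjusted p = 0.312) in limma. Without the first Apc library, which stood apart by lymphocyte markers, they were at 0.32 (adjusted p = 0.186) and 0.41 (adjusted p = 0.115). Over the 12 alternative fits of limma no member passed, with the adjusted p of Ezh2 between 0.0898 and 0.382 and that of Rbbp7 between 0.0621 and 0.312. All 22 PRC1 genes had a log2 change above 0 before that scaling (median 0.33), beside about 67% of all genes, and none was called. Ring1, a ubiquitin ligase subunit, was at 0.47 (adjusted p = 0.0634, limma) and its partner Pcgf2 at 0.66 (adjusted p = 0.0796). Rnf2, the paralog of Ring1, was at 0.22 (adjusted p = 0.332, limma), with overlapping libraries. Phf1 was again the opposite, at -0.44 (adjusted p = 0.0990, limma), without overlap. The cell cycle list had a median of 0.01 and no gene called. T and NK cell markers ran from 26.3 to 169.5 FPKM in sum in Apc and 12.2 to 17.49 FPKM in Apc Taf4KO libraries. Smooth muscle markers summed to 160 to 477 and 102 to 159 FPKM, and these sums parted only narrowly, at 160.4 and 159.3 FPKM. Of the single smooth muscle markers, Acta2, Tagln and Actg2 overlapped between the groups and Myh11, Des and Cnn1 did not. The part of these cell types in the PRC2 values was not tested.

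The order of Ezh2 and Ezh1 differed between settings. Per kilobase of exon, the ratio of Ezh2 to Ezh1 was 1.52 in control organoids, 0.552 with 4-OHT and 1.90 with EPZ. In mice it was 0.628 in E17.5 WT, 0.972 in E17.5 KO, 0.331 in adult WT and 0.355 in adult KO. In tumours, where FPKM is already per length but on another annotation, it ran from 1.48 to 2.28 in Apc and from 1.59 to 2.43 in Apc Taf4KO libraries, which overlapped. Exon lengths for mice and organoids were 6197 bases for Ezh2 and 7440 for Ezh1. Those recovered from the tumour values were 2667 and 4194 bases. The ratio depends on the lengths chosen, so the order at a ratio near 1, as in E17.5 KO, is not settled. Among the 10 genes per kilobase, Rbbp7 ranked first, Suz12 second and Phf19 last in all 7 groups of mice and organoids, while Jarid2 ran from rank 3 to 7, Ezh1 from 4 to 7, Ezh2 from 5 to 8 and Eed from 3 to 5. These ranks also depend on the lengths chosen. Rbbp4 had 8744 bases here and 4407 by the tumour values, but Eed had 2218 and 2060.

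Genes with a profile most like that of Ezh2 were sought by Pearson correlation of log2 means over the 7 organoid and mouse groups, each table centred, among 10847 other genes with at least 50 normalized counts in some group of both. The 5 highest were Ccdc34, Smc1a of cohesin, Lrrc47, Wdr82 of histone H3K4 methyltransferase complexes, and Gm10075, with r of 0.995 or more. Of the members, Rbbp4 (r = 0.97) ranked 158 and Suz12 (0.944) ranked 361, followed by Mtf2 (0.790), Phf19 (0.704), Rbbp7 (0.697) and Eed (0.693). Jarid2 (0.093), Ezh1 (-0.593) and Kdm6b (-0.623) did not share the profile. These groups are few and share tables and scaling, so r is a description.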

How the data were processed

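The 10 genes, the gene lists and the tests were chosen with earlier results of these data known. Embryo, adult and organoid files were deposited as a signal, the authors' group mean of counts normalized by the median of ratios, without values for single libraries. They come from mm9 alignments (STAR 2.5.3a) counted over Ensembl genes with HTSeq, after trimming (cutadapt 1.10) and a Bowtie2 2.2.8 filter for ribosomal RNA. Tumour values are FPKM of each library as the authors deposited them, keyed by Entrez identifiers, for which the labels list mm9 and mm10 and the annotation is not given in the sources used here. Labels state a stranded poly(A) kit and the methods amplified cDNA. Columns with the authors' own log2 fold changes and adjusted p-values were not used, and 0 per-sample columns were left unused.

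Means were compared as log2(mean + 1) within a table, with a minimum of 10 in the higher group. Because groups have 1 value, no count model or test was run on them. Tumours were tested with limma 3.58.1 (lmFit, eBayes with trend) on log2(FPKM + 1) for 13794 genes with a group mean of at least 1 FPKM, with Benjamini-Hochberg adjustment, after a test on simulated data. P-values measure the spread between libraries. Fold changes on this scale are understated for low genes. Reads were recovered from FPKM for an alternative fit, and 115486 of 115487 values above 0 came out whole within 0.0001 reads. Lengths are union exon lengths of the GENCODE annotation of mm9. List genes missing by symbol were looked up through RefSeq synonyms belonging to a single gene, and Kmt2d and Ezhip stayed unmatched in the mouse and organoid tables. Named genes were all 10 members, up to 4 of each list with the largest change and up to 2 against it, and the 5 most like Ezh2. Bmi1, Kdm2b, Kdm6a, Lgr5, Ring1, Rnf2, Pcgf2, Taf4a and the single smooth muscle markers were named after their values were seen. A marker gene is not reported here. Alternatives were another pseudocount, no filter, other scalings, other fits and leaving out each tumour library. Means were handled in pandas 2.3.3 under Python 3.11.15, and limma ran under R 4.3.3.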

Additional observations from a re-analysis of the deposited data

How the results depend on the processing

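For 7 of the 9 groups the values used were group means, and since the authors' own test columns were left out by choice, the differences given for these groups were not set against the spread between animals or wells. Without the filter on low values, the genes past 2-fold numbered 3702 in E17.5 KO against WT (1728 with it), 3713 in adult KO against WT (1701), 8853 in adult against E17.5 WT (5808), 5496 in 4-OHT against control (3231), 7643 in EPZ against 4-OHT (4967) and 6182 in EPZ against control (3599). At 1.5-fold they numbered 4140, 3432, 5871, 7986 and 6545 in the same order, adult against E17.5 WT left out since its count stayed within 1.5 times. Equal totals moved the share of genes called lower from 79.4% to 68.6% at E17.5, from 64.8% to 51.5% in adults, from 45.4% to 60.6% between ages and from 51.8% to 66.6% in EPZ against control. In tumours 307 genes were called by limma, 67 without the filter, 125 after scaling to a median log ratio of 0, 127 without the trend, 30 with voom on recovered reads and from 0 to 321 with 1 library left out, 0 without the third Apc Taf4KO library (2015 genes at an unadjusted p under 0.05). With a replicate block 1 gene was called, but same-numbered tumours shared only a number, their deviations correlating at -0.17, -0.20 and -0.04. The scaling turned the log2 change of Eed (-0.018), Jarid2 (-0.056) and Phf19 (-0.021). With 1 library left out Jarid2 ran from -0.028 to 0.19 and Phf19 from -0.024 to 0.31, and Ezh2, Rbbp7, Suz12, Mtf2, Rbbp4, Kdm6b, Ezh1 and Eed stayed above 0.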

Other observations

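SWI/SNF and KMT2 genes, whose products act against Polycomb, mostly had lower means with EPZ than in control. Of 11 listed SWI/SNF and KMT2 genes, which remodel nucleosomes or methylate lysine 4 of histone H3, 10 passed the level filter in organoids. With EPZ against control 9 of the 10 had a lower authors' mean, 2 of them past 2-fold (Kmt2b at -1.73 and Arid1a at -1.13 on the log2 scale, beside 13.3% of all genes), with a median of -0.89. Smarca2, an ATPase of SWI/SNF, was the exception at 0.41. With 4-OHT against control none of the 10 was past 2-fold and the median was -0.35.

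Of 20 textbook targets of Polycomb, 8 passed the filter in EPZ against control organoids. Cdkn2a, a cell cycle inhibitor, had 3.55 normalized counts in control, 0.776 with 4-OHT and 126 with EPZ. Cdkn1c had 19.9, 20.0 and 61.5, whereas Cdkn2b had 244, 843 and 131. The other targets past the filter were lower with EPZ than in control, and the median of the 8 was -0.67. In E17.5 and adult KO intestine the list had medians of 0.09 and -0.02, with Gata4 in adults at 2.18 as the only gene past 2-fold, beside 3.58% of all genes higher there. In tumours Hoxa9 ran from 0.421 to 1.65 FPKM in Apc and from 2.77 to 8.36 FPKM in Apc Taf4KO libraries (adjusted p = 0.0818, limma) and Cdkn2b at -0.73 (adjusted p = 0.0785).

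Of 8 stem cell genes of the crypt base, all 8 were lower past 2-fold with 4-OHT (median -2.15) beside 11.3% of all genes, and 5 were higher with EPZ against 4-OHT (median 1.76) beside 17.2%. With EPZ against control 4 of the 8 were lower past 2-fold, beside 13.3% of all genes, 7 had a mean below control and the median was -0.85. Lgr5 had 2605, 643 and 2009 normalized counts in control, 4-OHT and EPZ organoids.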
